A study of Mus musculus with 10 samples.

Results

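The transcriptome of wild-type (WT) mouse regulatory T (Treg) cells was described from the 5 WT arrays of a series of 10 arrays. The cells carried no engineered deletion, came from mixed bone marrow chimeras, which are recipients whose blood cells regrow from donor marrow of more than 1 genotype, and were lysed after sorting with no time in culture and no drug. The other 5 arrays hold Treg cells with a deletion of Stk11 and enter no value below. The labels do not state the organ, the age of the animals, the sorting gate or how many animals stand behind an array. The spread between the 5 arrays, called WT 1 to WT 5, may thus be technical as well as biological, and having only 5 limits the precision. The array carried 41345 probe sets, of which 23521 named exactly 1 gene. They gave 22180 genes after the brightest probe set of each gene was taken, and all 22180 were kept.

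Treg cells are CD4 T cells that hold back immune responses. Their identity rests on the transcription factor Foxp3, and they depend on interleukin 2, which they sense through a high-affinity receptor but do not make in quantity. A resting pool recirculates through lymphoid organs with the homing receptors of naive T cells, and an effector pool carries activation markers, tissue-homing receptors and suppressive molecules.

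Values are log2 signals as deposited, followed by the mean ± SD of 5 arrays where an error is given. The brightness of a probe set depends on its own probes as well as on its transcript, so a percentile states where a signal lies among the 22180 genes and does not rank transcript abundance. The table carries no detection calls. Olfactory receptor genes, which T cells are not known to express, therefore served as the low reference. On each array the 95th percentile of the 1105 olfactory receptor genes, called the olfactory level here, lay at 4.92, 4.94, 4.83, 4.86 and 4.88 for WT 1 to WT 5. By this rule 10671 genes, 48.1% of the 22180, lay above the level on all 5 arrays, 9566 lay above it on none, and 595, 394, 414 and 540 lay above it on 1, 2, 3 and 4 arrays. Of the olfactory receptor genes themselves, 39 lay above it on all 5. Counts of list members above the level are to be read beside the 48.1% of all genes. A gene just above and a gene just below this line differ little, and a gene below it is not shown to be silent.

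The 4 defining Treg transcripts lay near the top of the signal range on every array. Foxp3, the lineage transcription factor, read 10.95, 11.11, 11.13, 11.08 and 11.19 (mean 11.09 ± 0.09, SD, n = 5) and stayed between the 99.2 and 99.4 percentiles. Il2ra, the alpha chain of the interleukin 2 receptor, read 11.03, 11.09, 11.05, 11.01 and 11.08 (11.05 ± 0.03). Ikzf2 (Helios), a transcription factor of stable Treg cells, read 10.22, 10.12, 10.28, 10.16 and 10.18 (10.19 ± 0.06). Ctla4, the inhibitory receptor for CD80 and CD86, read 9.74, 9.79, 9.94, 9.77 and 9.65 (9.78 ± 0.10). No array stood apart in any of them, and the labelled cell type is borne out by its defining markers on all 5 arrays.

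**Figure D1:**
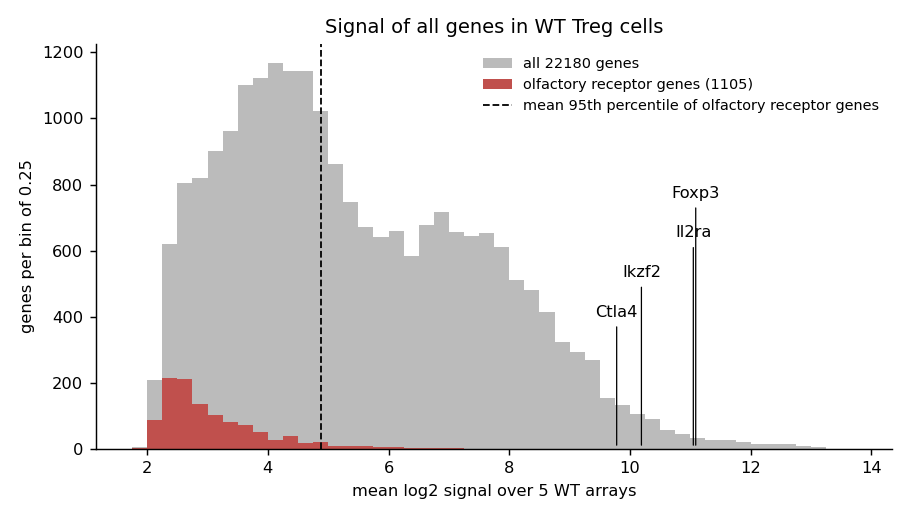
Histogram of the mean log2 signal over 5 WT arrays (x axis, bins of 0.25) against the number of genes per bin (y axis), grey for all 22180 genes and red for the 1105 olfactory receptor genes. The dashed line is the mean olfactory level, and Ctla4, Ikzf2, Il2ra and Foxp3, at 9.78 to 11.09, lie far to its right in the upper tail.

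With antigen receptor segments passed over, the brightest signals belonged mainly to the protein synthesis machinery. Of the 15 genes with the highest mean signal, Rplp1 (13.24 ± 0.06), Rps18, Rpl13, Rpl41, Rpl27, Rpl19, Rpl32, Rpl28, Rps9, Rpl21, Rps6 and Rpl4 encode cytosolic ribosomal proteins, B2m (13.20 ± 0.04) encodes the light chain of MHC class I, and Tpt1 encodes the translationally controlled tumour protein. The remaining gene, Cnbd2, is named for a cyclic nucleotide-binding domain and read 12.75 ± 0.02. The brightest of its 3 probe sets was used, and whether that probe set reads this gene alone was not tested. Rpl41 varied least among these 15, with 12.93, 12.91, 12.91, 12.93 and 12.91. In the whole family of 67 cytosolic ribosomal protein genes 61 lay above the olfactory level on all arrays, with a median signal of 10.72. Ribosomal protein genes have many near-identical pseudogenes, so how their signal is shared between copies is uncertain. The few dim members were mostly retrocopies or paralogs, such as Rpl10l (3.05 ± 0.49) and Rpl32l (2.57 ± 0.19).

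The antigen receptor machinery was uniformly bright. All 19 measured genes of the T cell receptor complex and its proximal signalling lay above the olfactory level on every array, with a median signal of 10.67 at the 99th percentile and a median SD of 0.08. The CD3 chains, which carry the receptor's signal, read 11.92 ± 0.05 for Cd3e, 11.74 ± 0.03 for Cd3d and 11.29 ± 0.10 for Cd3g. Lat, the membrane scaffold that the receptor kinases phosphorylate, read 11.60 ± 0.05, the kinase Zap70 8.96 ± 0.10, the co-receptor Cd4 9.97 ± 0.08 and the costimulatory receptor Cd28 9.61 ± 0.09. The dimmest member was Themis, an adaptor best known from thymic selection, at 7.89 ± 0.12. The receptor constant chains were not measured by a singly named probe set, and of 8 V segments Trav9d-3 was the brightest at 13.01 ± 0.02.

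The transcription factors that work with Foxp3 were bright throughout. All 21 measured members lay above the olfactory level on all arrays, with a median signal of 8.99, a median SD of 0.09, as in the brightest bin of all genes, and no range of 1 log2 unit. Ets1, which binds the Foxp3 locus, read 10.89 ± 0.07, Foxp1 10.10 ± 0.11, Foxo1, a factor needed for Treg development, 9.79 ± 0.10, Stat5b, which transmits interleukin 2 signals, 9.46 ± 0.08, and Ikzf4 (Eos), a Foxp3 corepressor, 9.14 ± 0.09. Runx1, another Foxp3 partner, read 8.79 ± 0.09, Gata3, a factor of tissue Treg cells, 8.41 ± 0.06, and Bach2, a repressor that holds effector programmes in check, 7.92 ± 0.09. Foxo3 was the dimmest at 5.99 ± 0.13, below the 99th percentile of the olfactory receptor genes on each array.

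Effector Treg transcription factors were all above the olfactory level too, 15 of 15. Their median signal was 7.91 and their median SD 0.18, and 12 of 15 had a larger SD than the median gene of their signal bin, where the genes are split into 10 equal bins of mean signal and 50% of all genes do so by construction. Of the 21 Foxp3 partners 10 did. Maf, which promotes interleukin 10 in T cells, read 10.16, 9.22, 10.41, 10.32 and 9.61 (9.94 ± 0.51), with WT 2 lowest and a range of 1.19. Batf and Irf4, which launch effector differentiation, read 8.08 ± 0.13 and 7.50 ± 0.20, Prdm1 (Blimp-1), which completes it, 6.24 ± 0.21, and Bcl6, the factor of follicular T cells, 8.38 ± 0.04. Tbx21 (T-bet), the T helper 1 factor, was the dimmest at 5.82 ± 0.23. On each array Tbx21 lay below the 99th percentile of the olfactory receptor genes.

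Surface receptors of the Treg signature were bright. Each of the 14 measured members lay above the olfactory level on all arrays, with a median signal of 9.13. Izumo1r (folate receptor 4) read 11.38 ± 0.06, Tnfrsf4 (OX40) 10.68 ± 0.08, Tnfrsf18 (GITR) 10.26 ± 0.08, Gpr83 10.20 ± 0.12, Lrrc32 (GARP, which holds latent TGF-beta on the surface) 9.85 ± 0.15, Tnfrsf9 (4-1BB) 9.17 ± 0.05 and Nrp1, a marker of thymus-derived Treg cells, 9.09 ± 0.13. Itgae (CD103), the integrin chain that binds epithelial cadherin, read 8.18, 7.87, 8.62, 8.28 and 7.74 (8.14 ± 0.35), the largest SD of the list. Klrg1, a receptor of terminally differentiated effector cells, was the dimmest at 5.75 ± 0.31. Only on WT 3 did Klrg1 pass the 99th percentile of the olfactory receptor genes.

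Suppressive and repair molecules covered a wide range of signal. Of 13 measured members 12 lay above the olfactory level on all arrays, with a median of 6.79. Lgals1 (galectin-1) read 10.58 ± 0.20 and Tgfb1 9.97 ± 0.12. Nt5e (CD73) read 9.38 ± 0.21 and Entpd1 (CD39) 7.09 ± 0.24, and these 2 ectoenzymes together turn extracellular ATP into adenosine. Gzmb (granzyme B) read 6.52, 5.53, 6.61, 6.22 and 6.30 (6.24 ± 0.42), with WT 2 lowest, and its SD was 0.19 without WT 2. Il10 read 5.66, 5.44, 6.18, 5.86 and 5.42 (5.71 ± 0.32), with WT 3 highest. Only on WT 3 did Il10 pass the 99th percentile of the olfactory receptor genes. Penk, the enkephalin precursor found in tissue Treg cells, read 6.79 ± 0.37. Of the interleukin 35 pair, Ebi3 read 7.36 ± 0.17 and Il12a read 4.36 ± 0.15, below the olfactory level on all 5 arrays.

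Among 11 checkpoint receptors 10 lay above the olfactory level on all arrays. Cd96 read 10.28 ± 0.09, Icos, a costimulator of effector cells, 9.08 ± 0.29, Btla 8.55 ± 0.11, Lag3 7.37 ± 0.24 and Pdcd1 (PD-1) 7.21 ± 0.22. Tigit, an inhibitory receptor of effector Treg cells, read 8.12, 7.38, 8.76, 8.22 and 7.59 (8.01 ± 0.55), with WT 3 highest and WT 2 lowest. Havcr2 (TIM-3) read 4.10 ± 0.23, below the level on all arrays.

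Receptors for homing named both lymphoid and tissue destinations. Of 23 chemokine and lipid homing receptors 17 lay above the olfactory level on all arrays. S1pr1, which lets lymphocytes leave lymphoid organs, read 10.48 ± 0.13, and Ccr7, which brings them into lymph nodes, 10.17 ± 0.15. Cxcr5, which leads to B cell follicles, read 8.41 ± 0.24, Cxcr4, a retention receptor of bone marrow, 8.37 ± 0.18, Ccr8, a receptor of activated Treg cells, 8.29 ± 0.32, Cxcr3, the receptor of interferon-induced chemokines, 8.19 ± 0.37, Ccr6 7.10 ± 0.19, Cxcr6 7.08 ± 0.31 and Ccr4, which serves homing to skin, 6.84 ± 0.33. Ccr2, the receptor for monocyte chemoattractants, read 7.27, 6.40, 7.43, 7.38 and 6.89 (7.07 ± 0.43), with WT 2 lowest, and its SD was 0.25 without WT 2. The gut receptor Ccr9 (4.47 ± 0.39) and Ccr10 (4.46 ± 0.46) each lay above the level on 1 array only, and the SD of Ccr10 was 0.28 without WT 2. Of 25 integrin chains 14 (56%) lay above the olfactory level on all arrays, near the 48.1% of all genes. They were led by Itgb2 (10.35 ± 0.04), the shared chain of leukocyte integrins. Of 22 TNF receptor superfamily genes 15 (68.2%) lay above the level on all arrays, led by Cd27 (10.83 ± 0.08).

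Many cytokine receptors but few cytokine transcripts stood above the low reference. Of 27 cytokine receptor genes 24 lay above the olfactory level on all arrays, with a median signal of 8.51. Il2rb, the signalling beta chain for interleukins 2 and 15, read 11.56 ± 0.10, Il6ra 10.04 ± 0.12, Il7r 9.59 ± 0.05 and Il18r1 8.54 ± 0.30. Il1r2, the decoy receptor for interleukin 1, read 7.39, 6.29, 7.61, 6.72 and 5.95 (6.79 ± 0.71), with WT 3 highest and WT 5 lowest, while the signalling receptor Il1r1 (4.23 ± 0.48) lay above the level on 1 array. Il23r, at 3.56 ± 0.46, lay below it on all. The 15 measured JAK, STAT and SOCS family genes were all above it, led by Cish, an interleukin 2 target, at 10.63 ± 0.14. Of 15 helper T cell cytokines 3 lay above the level on all arrays. They were Tnf (9.05 ± 0.06), Lta (lymphotoxin alpha, 9.02 ± 0.17) and Ifng (5.76 ± 0.23). Ifng was much dimmer than the others and lay below the 99th percentile of the olfactory receptor genes on each array. Il13 (5.04 ± 0.26) lay above the olfactory level on 3 arrays, and the other 11 on none. Among those 11 were Il2 (4.0 ± 0.13), Il4 (4.15 ± 0.16), Il17a (4.26 ± 0.25) and Il22 (2.20 ± 0.17).

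Genes of the resting state were bright. All 20 measured quiescence genes lay above the olfactory level on all arrays, with a median signal of 9.77 and a median SD of 0.11, and 12 of 20 had a larger SD than the median gene of their signal bin. Btg1, an antiproliferative factor, read 10.93 ± 0.09, Txnip, which limits glucose uptake, 10.64 ± 0.08, Klf2, the factor that drives S1pr1, 9.78 ± 0.11, and Satb1, a chromatin organiser, 9.22 ± 0.17.

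Immediate early genes, which respond within minutes to receptor or stress signals, were bright as well. Of 33 measured members 31 lay above the olfactory level on all arrays, with a median of 8.58. Zfp36, which destabilises cytokine messages, read 12.08 ± 0.07, Nr4a1 (Nur77), a reporter of antigen receptor signals, 10.0 ± 0.14, Dusp1 9.76 ± 0.15, Jun 9.66 ± 0.20, Egr1 9.17 ± 0.06 and Egr2 8.48 ± 0.08. Fos read 9.09, 9.50, 9.15, 8.68 and 8.60 (9.01 ± 0.37), with WT 2 highest and WT 4 and WT 5 lowest. Ier2 varied little (8.47 ± 0.03), and Egr4 (4.33 ± 0.14) lay below the level on all arrays. Of 18 genes of the NF-kB pathway all lay above it, led by the inhibitor Nfkbia (10.18 ± 0.04), and of 27 interferon-stimulated genes 23, led by the immunoproteasome subunit Psmb9 (11.54 ± 0.03), with Mx1 (4.52 ± 0.17) below it throughout. All 8 GIMAP GTPases, survival factors of lymphocytes, lay above it, from Gimap1 (7.99 ± 0.09) to Gimap4 (11.16 ± 0.11). Of the BCL2 family 12 of 15 did, and Mcl1, a survival factor that Treg cells need, led at 10.72 ± 0.08.

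Markers of other cell types were checked next, since a sorted sample can hold other cells or their RNA, and in a bulk sample fewer cells of a type and less RNA per cell cannot be told apart. Of 24 macrophage, monocyte and dendritic cell markers 18 lay above the olfactory level on all arrays. Lyz2, the myeloid lysozyme, read 9.57, 8.69, 9.45, 8.99 and 8.75 (9.09 ± 0.40), Tyrobp, a myeloid and NK signalling adaptor, 8.98, 8.66, 8.97, 8.67 and 8.41 (8.74 ± 0.24), Cd68, a lysosomal protein of macrophages, 8.26 ± 0.19, and C1qa, a complement gene of tissue macrophages, 7.76, 7.38, 7.72, 7.27 and 7.26 (7.48 ± 0.24). Cst3 (10.01 ± 0.09) was the brightest, and Itgax, Itgam, Cd14, Flt3 and Xcr1 lay below the level on all 5 arrays. The mean of the list was 7.02, 6.81, 7.06, 6.82 and 6.73, so WT 1 and WT 3 were high and WT 5 low. The MHC class II gene H2-Aa read 8.37 ± 0.16.

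B cell markers ran in another order. Of 16 markers 6 (37.5%) lay above the olfactory level on all arrays, beside 48.1% of all genes. Cd79a, a chain of the B cell receptor complex, read 5.88, 5.95, 6.35, 6.67 and 7.0 (6.37 ± 0.48), and Cd79b 6.94, 7.25, 7.30, 7.61 and 7.61 (7.34 ± 0.28), in both cases with WT 4 and WT 5 above WT 1 to WT 3. Ighm was bright (10.88 ± 0.15), while Ms4a1 (CD20) at 3.67 ± 0.33 lay below the level throughout. Jchain, an antibody-secreting cell gene, read 5.71, 4.90, 5.78, 5.58 and 4.51 (5.30 ± 0.56). The list mean was 5.31, 5.17, 5.44, 5.41 and 5.55.

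Markers of other lineages varied in signal. Of 6 measured erythroid and platelet markers 5 lay above the olfactory level on all arrays, with a median signal of 5.37 close to that level and the platelet gene Ppbp brightest at 6.15 ± 0.26. Of 5 CD8 and gamma-delta T cell markers 3 (60%) did so, beside 48.1% of all genes, with a median of 5.41. Cd8a (5.41 ± 0.25), a chain of the CD8 co-receptor, lay below the 99th percentile of the olfactory receptor genes on each array. Both Cd8a and the other chain, Cd8b1 (7.70 ± 0.22), lay above the olfactory level on all arrays. Of 9 NK and innate lymphoid markers 2 did so, with Nkg7 at 9.11 ± 0.14 and the NK receptors Ncr1 (4.17 ± 0.30) and Klrd1 (4.29 ± 0.32) below it throughout. Of 16 neutrophil and mast cell markers 3 did, among them S100a8 (5.62, 5.58, 5.67, 6.38 and 6.45), which was higher on WT 4 and WT 5. Of 15 stromal, endothelial and epithelial markers 2 did, the brightest being Pecam1 (9.19 ± 0.14), which leukocytes also carry, while Epcam (4.43 ± 0.22) and Dcn (2.80 ± 0.19) lay below it. The Y-linked genes Eif2s3y (8.82 ± 0.12), Kdm5d (8.0 ± 0.13) and Uty (7.20 ± 0.06) lay above the level on all 5 arrays, and Xist, the RNA that coats the inactive X chromosome of female cells, read 3.72 ± 0.18, below it on all.

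**Figure D2:**
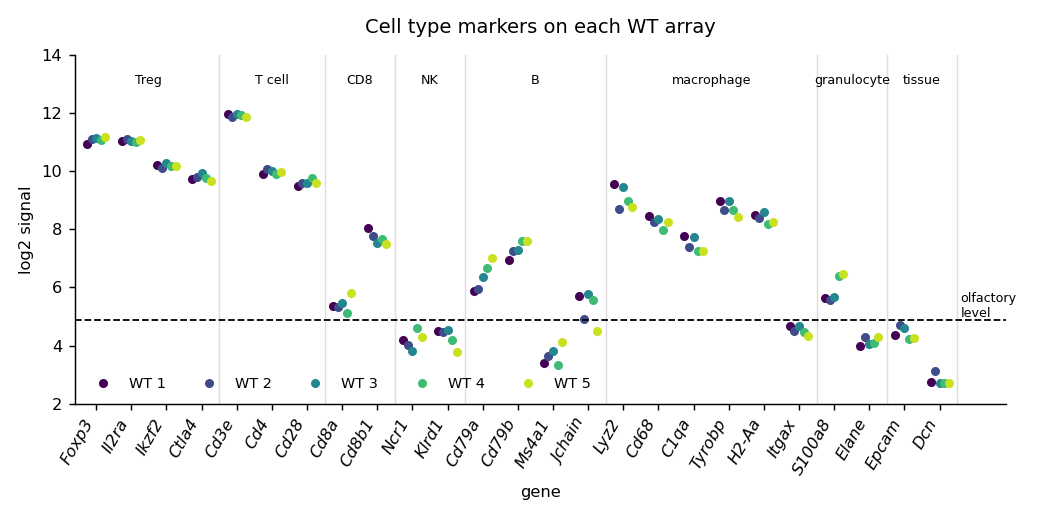
Log2 signal (y axis) of cell type markers (x axis), 1 point per WT array, coloured by array, with the mean olfactory level dashed. Foxp3, Il2ra, Ikzf2 and Ctla4 vary by at most 0.29 between arrays, while Cd79a spans 5.88 to 7.0 and Lyz2 8.69 to 9.57; the genes drawn were picked for display after their values were seen.

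Core metabolism and protein turnover were represented almost completely above the olfactory level. All 40 measured oxidative phosphorylation genes of the nuclear genome lay above it, with a median signal of 8.93, and Cox4i1, a subunit of cytochrome c oxidase, led at 11.30 ± 0.05. Of 20 tricarboxylic acid cycle genes 19 did, led by Mdh2 (10.98 ± 0.09). Of 20 glycolysis and pentose phosphate genes 19 did, led by Gapdh (11.72 ± 0.08), and the muscle phosphofructokinase Pfkm (4.96 ± 0.24) did so on 2 arrays. All 16 fatty acid oxidation genes did, and Cpt1a, which admits long-chain fatty acids to mitochondria, read 6.74, 7.09, 7.11, 7.09 and 7.09, with WT 1 apart from the rest. Of 20 cholesterol and fatty acid synthesis genes 18 did, of 33 proteasome subunits 32, and of 71 mitochondrial ribosomal proteins 69.

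Among nutrient-sensing genes, 21 of 22 members of the mTOR and PI3K pathway lay above the olfactory level on all arrays, and 16 of 20 of the LKB1 complex and AMPK-related kinases. Stk11, which encodes the kinase LKB1, read 6.61, 6.69, 6.75, 6.95 and 6.92 (6.78 ± 0.15). Of the catalytic AMPK subunits that LKB1 activates, Prkaa1 read 8.41 ± 0.07, while Prkaa2 (3.68 ± 0.19) lay below the level on all arrays.

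**Figure D3:**
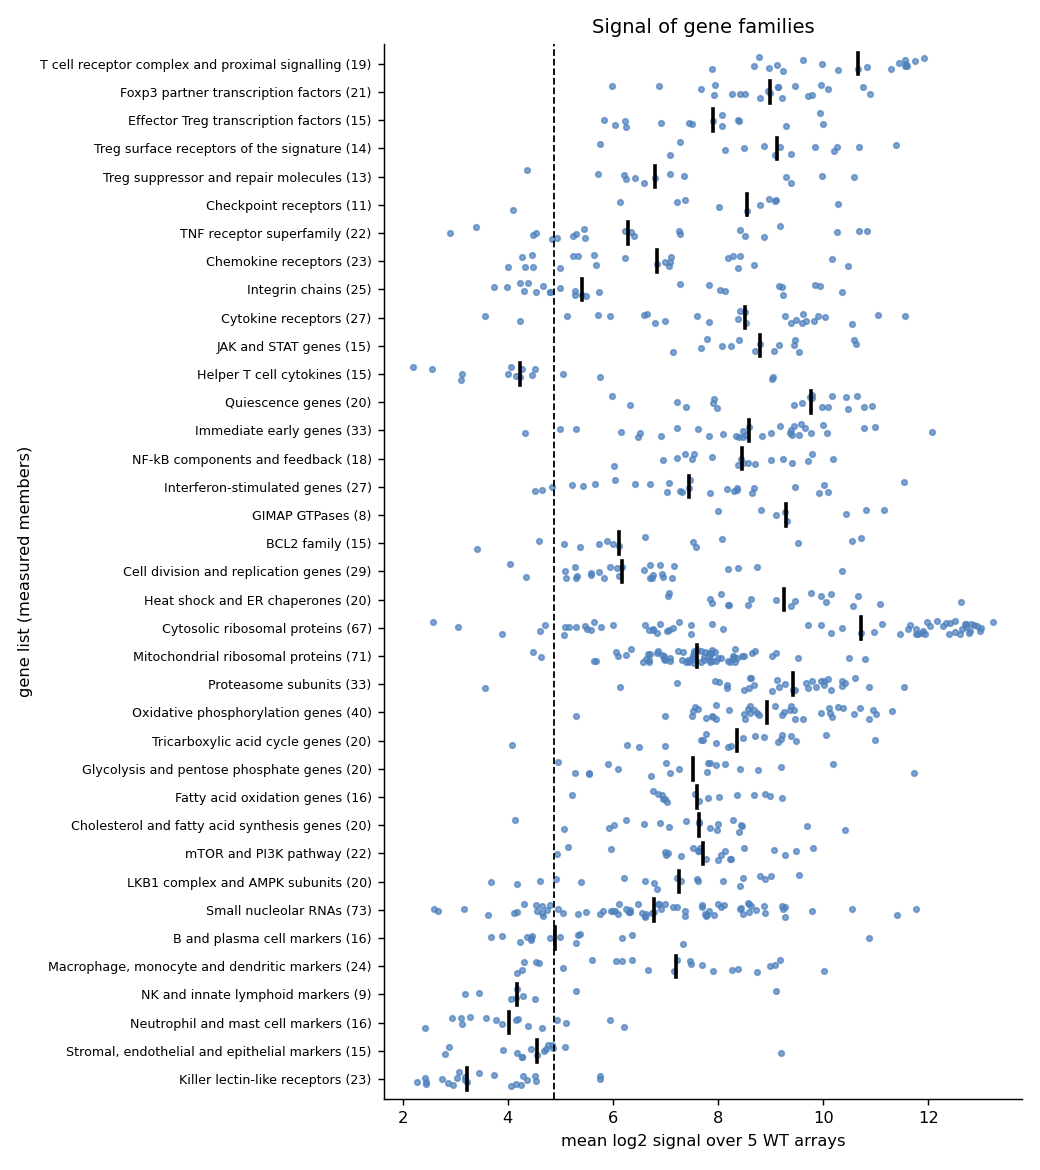
Mean log2 signal over 5 WT arrays (x axis) of the measured members of the gene lists (y axis, number measured in brackets), 1 point per gene, the median as a black bar and the mean olfactory level dashed; points are jittered vertically. The T cell receptor list (median 10.67) and cytosolic ribosomal proteins (10.72) lie to the right, and killer lectin-like receptors (3.22) and helper cytokines (4.23) mostly to the left of the dashed line.

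MicroRNA genes were mostly dim, as 107 of 483 lay above the olfactory level on all arrays and the median signal was 3.57. Their probe sets read amplified RNA from the gene, so the signals are not levels of the mature microRNA. A mature sequence in the RefSeq table of GRCm38.p6 matched 420 of the 483. The 5 below belong to genes known in T cell biology, chosen after their values were seen, and are shown because the seed, bases 2 to 8 in capitals, is what pairs with target messages and differs among all 5.
mmu-miR-142a-5p: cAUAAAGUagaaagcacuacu
mmu-miR-142a-3p: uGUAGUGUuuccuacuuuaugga
mmu-miR-17-5p: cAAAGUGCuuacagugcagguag
mmu-miR-16-5p: uAGCAGCAcguaaauauuggcg
mmu-miR-181b-5p: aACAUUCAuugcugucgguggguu
Mir142, a gene of the blood lineage that gives both miR-142a strands, read 8.48, 8.62, 8.73, 9.14 and 8.67 (8.73 ± 0.25). Mir17, of a cluster that supports lymphocyte growth, read 7.66 ± 0.14, and Mir16-2 6.93 ± 0.17. Mir181b-1, of a family active in thymocytes, read 3.18, 3.97, 4.51, 3.71 and 2.76, below the olfactory level on every array.

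The 5 arrays resembled each other closely. Pearson's r between pairs of arrays, across genes, which are not independent replicates, ran from 0.9905 to 0.9931. Among the 10671 genes above the olfactory level, 7 to 27 differed by 2-fold or more between any pair. The median SD was 0.15 over all genes and 0.13 over those above the level, and it went from 0.18 in dim signal bins to 0.09 in the brightest of the 10. A range of at least 1 log2 unit, which is 2-fold, was seen in 499 genes, 2.25% of all, and in 108 of those above the level, 1.01%. Between its lowest and highest array the median gene moved by 5.38 percentiles, and by 3.44 above the level. Of 22180 genes, none had a spread above the trend of SD on signal in limma at an adjusted p under 0.05 (0%, smallest adjusted p 0.259). At an unadjusted p under 0.05 limma gave 1020 genes, 4.6%. The genes singled out below for their spread were therefore chosen after their values were seen, and are descriptions.

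The steadiest genes above the olfactory level were Asb8, Cnbp, Cox10, Cux2 and Rpl41, each with an SD of 0.01. With antigen receptor segments and small RNAs passed over, the largest SDs among genes above the level were those of H1f5, a linker histone of dividing cells (SD 0.87), the stress chaperone Hspa1a (0.85), the lysozyme Lyz1 (0.82), Il1r2 (0.71) and Tlcd1, a lipid membrane regulator (0.68). The 20 largest also included Hspa1b, Tigit, Top2a, Rrm2, Maf, Lilrb4a, Cd63, Cxcl10, Gprasp2, Tbx6, Fam234a and Mterf1b. Among them too were Olfr1487 (0.56) and Olfr914 (0.54), of the family that served as the low reference. The immunoglobulin gene Igh-VS107 (0.49), whose name escaped the rule that passes over segments, was the remaining one. Lilrb4a, an inhibitory receptor, read 7.43, 6.79, 8.17, 7.50 and 6.89, the same order of arrays as Tigit, and its SD (0.55) was 0.36 without WT 3. That of Cd63 (0.52) was 0.19 without WT 1.

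**Figure D4:**
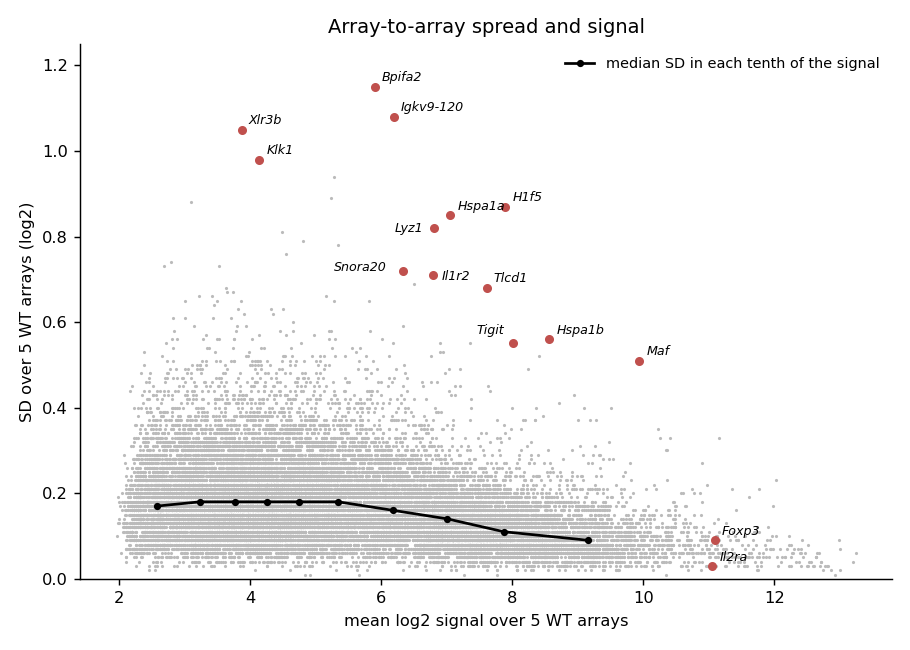
SD over 5 WT arrays (y axis, log2) against mean log2 signal (x axis), 1 grey point per gene, with the median SD in each of 10 equal bins as a black line. Named genes in red include H1f5 (0.87), Hspa1a (0.85) and Lyz1 (0.82), which stand well above the line. Foxp3 (0.09) lies close to the median SD of the brightest bin and Il2ra (0.03) lies below it.

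To see whether families leaned to particular arrays, the array on which each member was highest and lowest was counted. Over all 22180 genes the shares were 20.1%, 20.7%, 16.2%, 21.8% and 21.2% for the highest value on WT 1 to WT 5, and 20.4%, 22.4%, 19.6%, 20% and 17.6% for the lowest. These counts describe the 5 arrays and carry no test.

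In several of the Treg lists many genes had their highest value on WT 3. Of the effector transcription factors 9 of 15 did, of the suppressive molecules 10 of 13, of the signature surface receptors 9 of 14 and of the chemokine receptors 9 of 23. The last 2 lists also hold genes that were highest elsewhere. Among them Izumo1r, Gpr83 and S1pr1 were highest on WT 5, Ccr7, Tnfrsf9 and Lrrc32 on WT 2, and Tnfrsf18 on WT 4. Entpd1 and Nt5e, both highest on WT 3, belong to the suppressive and the surface receptor list and count in each. The 21 Foxp3 partners did not lean this way: 5 were highest on WT 3 and 8 lowest there, more than on any other array. Of the 11 checkpoint receptors 4 were highest on WT 3 and 4 on WT 2. In the effector and suppressive lists WT 2 and WT 5 held most of the lowest values. They held 4 and 7 of the 15 effector transcription factors and 5 and 4 of the 13 suppressive molecules. The mean of the suppressive list was 7.38, 7.21, 7.59, 7.46 and 7.28. Of the 20 quiescence genes none was highest on WT 3, 7 were lowest there and 8 were lowest on WT 1, and the list mean was 9.05, 9.20, 9.06, 9.16 and 9.16. Ccr7 read 9.96, 10.39, 10.15, 10.16 and 10.17, highest on WT 2, and Satb1 9.25, 9.35, 8.99, 9.11 and 9.42, lowest on WT 3. Ctla4 and Ikzf2 were also highest on WT 3, but no lineage marker spanned more than 0.29. Of the 24 macrophage markers 13 were also highest on WT 3 and 11 on WT 1, with 16 lowest on WT 5, and their part in these counts was not tested. Highest values on WT 3 were not particular to Treg lists. They were seen in 10 of 20 heat shock and ER chaperones, 6 of 10 mitochondrially encoded genes and 8 of 25 integrin chains, beside 16.2% of all genes. Other lists differed, such as oxidative phosphorylation with 1 of 40.

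Immediate early genes leaned to WT 2. Of 33 members 19 were highest on WT 2 and 17 lowest on WT 5, and the list mean was 8.43, 8.59, 8.52, 8.44 and 8.35. Fosb read 8.30, 8.67, 8.72, 8.16 and 7.83, and Dusp4, a phosphatase that limits ERK signals, 8.33, 8.93, 8.61, 8.73 and 8.31. Egr1 kept within 9.10 to 9.25 on the same arrays, so members differed in how far they moved. Small nucleolar RNAs, which guide chemical modification of ribosomal RNA, also leaned to WT 2, with 34 of 73 highest there, and 66 of the 73 exceeded the median SD of their signal bin.

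Genes of cell division were lowest on WT 5. Of 29 members 24 lay above the olfactory level on all arrays, 22 were lowest on WT 5, none was highest there, and 6 had a range of at least 1 log2 unit. The list mean was 6.61, 6.48, 6.50, 6.35 and 6.09. Mki67 (Ki-67), the usual marker of cycling cells, read 7.20, 6.75, 7.18, 6.56 and 6.10 (6.76 ± 0.46). Rrm2, which supplies deoxynucleotides, read 7.62, 6.89, 7.27, 6.74 and 6.22 (6.95 ± 0.53). Top2a, which untangles replicated DNA, read 6.50, 6.50, 6.65, 5.92 and 5.33 (6.18 ± 0.55), and its SD was 0.32 without WT 5. Pcna, the replication clamp, moved less (10.42, 10.38, 10.46, 10.25 and 10.30). The macrophage markers were also lowest on WT 5 in 16 of 24 cases, and their part in this pattern was not tested.

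The running codes in the sample descriptions place WT 1 to WT 3 in a first run of codes (code set 1) and WT 4 and WT 5 in a later run (code set 2). The labels do not explain the codes. In limma, 0 of 22180 genes were higher and 0 were lower in code set 2 at an adjusted p under 0.05 (0% each, smallest adjusted p 0.249). At an unadjusted p under 0.05 limma gave 738 higher and 539 lower, together 1277 of 22180. An unadjusted cut of 0.05 passes many genes by chance alone. With a robust trended prior the counts at an adjusted p under 0.05 were 0 and 6. The 6 were Tlcd1, H1f5, Eif4a2, Snora20, H4c12 and Snord47. Without any test, both code set 2 arrays lay above all code set 1 arrays in 12.1% of genes and below them in 9.44%.

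Counts of members that lay below in code set 2 are to be read beside the 9.44% of all genes. Both its arrays were below all others in 16 of 29 cell division genes, 27 of 73 small nucleolar RNAs, 9 of 24 macrophage markers, 8 of 14 housekeeping reference genes, 7 of 20 heat shock and ER chaperones and 16 of 67 cytosolic ribosomal proteins. The same held for 11 of 40 oxidative phosphorylation genes, 17 of 71 mitochondrial ribosomal proteins and 8 of 33 immediate early genes. It held for 0 of 22 mTOR and PI3K pathway genes. The median difference, code set 2 minus code set 1, was -0.21 for the cell division genes, -0.22 for the small nucleolar RNAs, -0.21 for the macrophage markers and -0.08 for the housekeeping genes, against 0.02 over all genes. Both code set 2 arrays were above all others in 7 of 16 neutrophil and mast cell markers, 5 of 18 NF-kB genes, 4 of 16 B cell markers and 3 of 8 GIMAP genes, beside 12.1% of all genes. Of the 16 neutrophil and mast cell markers 12 lay above the olfactory level on no array, so most of that list is dim signal. H1f5 read 8.62, 8.39, 8.52, 7.27 and 6.67, a difference of -1.54 (SE 0.18, adjusted p 0.278 by limma), and its percentile ranged from 70.6 to 91.7. Tlcd1 read 7.99, 8.26, 8.06, 6.81 and 6.93, a difference of -1.23 (SE 0.13, adjusted p 0.249 by limma). Apoo, a protein of mitochondrial cristae, read 5.85, 5.78, 6.02, 4.23 and 4.81, and Lyz1 7.59, 6.88, 7.60, 6.23 and 5.75. Lyz1 is a close paralog of the macrophage gene Lyz2, and how the probes divide their signal is uncertain. Among single genes on the upper side, with small RNAs and antigen receptor segments passed over, the 5 largest differences belonged to dim genes below the olfactory level on all arrays, namely Olfr1158, Olfr1061, Eddm3b, Olfr1254 and Abra.

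The inducible heat shock genes Hspa1a and Hspa1b had the largest SDs of the 20 chaperone genes. Hspa1a read 7.87, 6.95, 7.98, 6.35 and 6.11 (7.05 ± 0.85), and Hspa1b 9.10, 7.96, 9.19, 8.14 and 8.42 (8.56 ± 0.56). Both were high on WT 1 and WT 3, and the other arrays differed in order between the genes. The constitutive chaperone Hspa8 stayed between 12.57 and 12.69. Hspa1a and Hspa1b are near-identical copies, so their probe sets may not separate their transcripts, and the 2 readings are not independent. Their start regions are shown because they show how alike the copies are outside the coding sequence and where a heat shock element lies, the motif through which heat shock factors act. The windows run from 250 bases before to 50 after the RefSeq start in GRCm38.p6, at chr17:34972107-34972406 and chr17:34959189-34959488, both on the minus strand, with the motif GAANNTTC in capitals.
Hspa1a promoter: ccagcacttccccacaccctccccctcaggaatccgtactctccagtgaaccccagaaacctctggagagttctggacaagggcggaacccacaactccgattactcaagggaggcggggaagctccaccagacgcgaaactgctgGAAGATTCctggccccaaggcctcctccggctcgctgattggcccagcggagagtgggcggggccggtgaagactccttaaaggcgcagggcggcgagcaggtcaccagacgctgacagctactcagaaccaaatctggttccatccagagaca
Hspa1b promoter: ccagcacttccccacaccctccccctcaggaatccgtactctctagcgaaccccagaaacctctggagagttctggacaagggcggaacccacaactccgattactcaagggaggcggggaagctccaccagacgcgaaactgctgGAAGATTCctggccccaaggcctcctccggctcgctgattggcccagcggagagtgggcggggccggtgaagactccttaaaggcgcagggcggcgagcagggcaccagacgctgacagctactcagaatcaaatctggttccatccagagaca
The windows are identical at 296 of 300 positions (98.7%), and the motif, which reads the same on both strands, begins at position 147 of each. It occurs in 2582 of the 32851 windows of that length in the table (7.86%), was the only motif searched, and a match is a description of letters, not of binding.

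**Figure D5:**
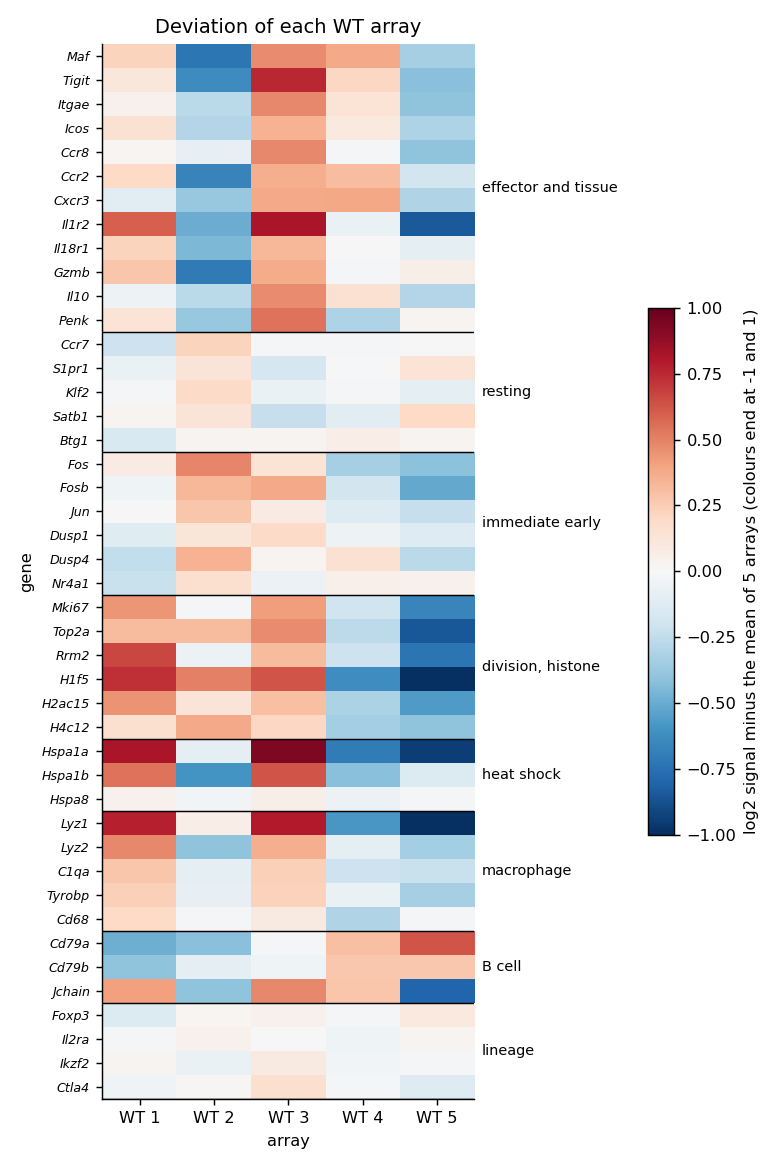
Heat map of log2 signal minus the mean of 5 arrays for genes (rows, grouped by function) on WT 1 to WT 5 (columns), red for higher and blue for lower, with colours ending at -1 and 1; the genes were picked for display after their values were seen. Genes of the effector and tissue group are red mostly on WT 3, Top2a, Rrm2 and H1f5 are blue on WT 5, and the 4 lineage markers at the bottom stay near white.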

How the data were processed

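Gene transcripts were measured on single-channel arrays in 5 WT samples of sorted Treg cells. Per the labels' protocols, RNA from an RNeasy Micro kit, in amounts of some nanograms, was amplified with NuGEN WTA Pico v2 and given a biotin label by the Encore module, which can distort some levels. The values deposited by the authors are on a log2 scale. RMA and Partek 6.6 were used, per the submitters' processing notes, with order and settings not given in the sources used here. Quantile normalization, a step of RMA, hides any shift shared by all genes.

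The platform annotation named the probe sets (23521 with 1 symbol, 1814 with several, 16010 with none), and 23328 Entrez identifiers matched RefSeq with 0 differing symbols. Where a gene had several probe sets (1082 genes), the one with the highest mean over the 5 arrays was used. The spread was tested against its trend on signal, and code sets were compared, in limma 3.58.1 (R 4.3.3) over all 22180 genes with Benjamini-Hochberg adjustment, after a test on simulated data. Named genes were the 4 markers, the 15 brightest, the 5 steadiest, the 5 largest differences each way between code sets (all passing over small RNAs, antigen receptor segments and predicted genes), members of lists that were brightest, dimmest or most variable, and genes with a known role. The 51 lists and the members were chosen with earlier results of these data known, and 3 lists (salivary, histone and mitochondrially encoded genes), the 20 genes of largest SD and the role genes were added after values were seen. Alternatives changed the probe set rule, scaling, filter, low reference, prior, threshold and arrays.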

Additional observations from a re-analysis of the deposited data

Results flagged for a closer look

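In each case below, the highest or lowest array stood apart from the other 4 by a gap that, divided by the range of all 5, passed the critical value of 0.71. Chance gives about 1 in 20 such cases, and 20 of 278 named genes (7.19%) stood apart this way against 5.36% of all genes.

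WT 1 was the array that stood apart, below the others, in Btg1 (gap 0.82), Cd27 (0.768), Cpt1a (0.938) and Nfkbid (0.755). WT 2 was above the others in Dcn (0.907), Havcr2 (0.731) and Ifit3 (0.84) and below them in Trgv5 (0.761). WT 3 was above in Pfkm (0.72). WT 4 was above in Cdh5 (0.751), Klrc1 (0.901), Krtap19-3 (0.751), Rpl10l (0.917), Slc16a3 (0.892) and Tbx21 (0.771) and below in Eif2s3y (0.723). WT 5 was below in Itga7 (0.754), Rps9 (0.715) and Runx1 (0.752) and above in Rpl32l (0.728).

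Ifit3, an interferon-induced antiviral gene, read 7.86 on WT 2 and 7.12 to 7.24 on the others. Klrc1, an NK receptor gene, read 5.44 on WT 4 and 4.24 to 4.35 elsewhere. Of the 9 NK and innate lymphoid markers 4 were highest on WT 4, among them Ncr1 (4.60), which lay below the olfactory level. Others went another way: Klrd1, also below the level, read 4.18 on WT 4 and 4.47 to 4.53 on WT 1 to WT 3. Nkg7 was highest on WT 3 (9.31). Tbx21 read 6.21 on WT 4 and 5.64 to 5.77 elsewhere. Slc16a3, a lactate exporter, read 6.40 on WT 4 and 5.75 to 5.82 elsewhere.

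The same rule singled out 5 of 53 list means. WT 2 was low for the BCL2 family (gap 0.808). WT 1 was high for oxidative phosphorylation (0.732), whose mean was 9.09 against 8.97 to 9.0. WT 3 was high for fatty acid oxidation (0.737), and WT 5 was low for cytosolic (0.723) and mitochondrial (0.762) ribosomal proteins.

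Probe sets without a gene symbol carried signal too: 5841 of 16010 (36.5%) lay above the olfactory level on all 5 arrays.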

How the results depend on the processing

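The count of genes above the olfactory level on all arrays kept within 1.5 times of 10671 under all alternatives run: 7264 with the 99th percentile of olfactory receptor genes, 12521 with vomeronasal receptor genes as the low reference, and 10720 to 10904 with 1 array left out. The counts for spread and for either direction between code sets in limma, for which the low reference plays no part, were 0 under the probe set, scaling, filter, threshold and prior alternatives run and with 1 array left out (lowest 0, highest 0), except that the robust trended prior gave 6 genes lower in code set 2. Leaving 1 array out left the mean of each named gene within 1 SD in all 1390 cases and its SD within 1.5 times in 1282. For 108 of 278 genes, leaving out the array that lowered the SD most changed it by over 1.5 times. The SD of Top2a (0.55) was 0.32 without WT 5, that of Bpifa2 (1.15) 0.72 without WT 3, and that of Klk1 (0.98) 0.55 without WT 4. Averaging all probe sets of a gene moved the mean of 29 of 278 named genes by more than 1 SD and the median percentile of 15 of 53 lists beyond its spread over arrays. Keeping only genes above the low reference moves percentiles by construction. How many olfactory receptor genes carry true signal is not measured here, which limits the low reference. No paired analysis was possible because no groups were compared: the Stk11 deletion arrays, which share the replicate numbers 1 to 5, were not analysed here, and the code sets within WT share no number.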

Other observations

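Secretory genes of salivary glands gave the largest SD of any gene, in a list of 27 members chosen after their values were seen. Bpifa2, a salivary secretory protein, read 4.75, 6.37, 7.62, 5.06 and 5.67 (5.90 ± 1.15), the largest SD of all 22180 genes. The tissue kallikrein Klk1 read 3.99, 5.26, 4.61, 2.60 and 4.23, highest on WT 2 and not on WT 3, and Klk1b5 4.98, 5.83, 4.55, 3.67 and 5.01. Of the 27 genes 2 lay above the olfactory level on all arrays, 18 lay above it on none, and the median signal was 3.69.

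Histone genes under their current symbols, 34 in all and chosen after their values were seen, were lowest on WT 5 in 18 cases. H4c12 read 10.38, 10.60, 10.43, 9.88 and 9.82, H2ac15 9.40, 9.08, 9.25, 8.63 and 8.38, and H1f2 9.10, 9.06, 9.02, 8.89 and 8.72. Of the 34, 17 (50%) lay above the olfactory level on all arrays, beside 48.1% of all genes.

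The 10 measured genes of the mitochondrial genome, a list chosen after their values were seen, had a median signal of 12.31 and a median SD of 0.07. Of these 10 genes 9 were lower on both code set 2 arrays than on all others, beside 9.44% of all genes. The median difference over the 10, code set 2 minus code set 1, was -0.11. Immunoglobulin V segments had a median SD of 0.36. The kappa segment with the largest SD read 5.63, 5.70, 7.76, 6.81 and 5.05, and 7 of 17 segments were highest on WT 3 and 6 on WT 4.

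The vomeronasal receptor gene Vmn1r233 read 12.40 ± 0.07 and the olfactory receptor gene Olfr331 7.12 ± 0.45, the highest of their families, whose medians were 2.61 and 2.82.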
